A study of Arabidopsis thaliana with 4 samples.

Results

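Plates TB00 to TB49 carry the first part of the TB probes of an array on which H3K27me3 was mapped in Arabidopsis thaliana seedlings. The members were chosen by name only: every feature with a value named TB, a plate number of at most 49, a row letter and a well. This gave 4800 probes on 50 plates, 22.1% of the 21740 probes with a value, and no well of these plates lacked one. Seedlings of ecotype col-0 (Columbia), 10 day old, untreated and grown in liquid medium, were the only group. The material was seedling, so the values are averages over all their cell types. Chromatin was immunoprecipitated with an antibody against H3K27me3, and each of 2 immunoprecipitations, here replicates I and II, was hybridised with its own input on 2 arrays with the dyes exchanged. The labels do not say whether the replicates came from separate cultures, so their spread may be technical.

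H3K27me3 is trimethylated lysine 27 of histone H3. In plants it is laid down by Polycomb repressive complex 2, whose catalytic subunits in seedlings are CURLY LEAF and SWINGER, and it is bound by the chromodomain protein LHP1. In Arabidopsis it typically covers the transcribed part of single silenced genes, among them many regulators of flowering, embryo and floral organ development, and neighbouring marked genes can form longer blocks. Probes are named here by plate and well. No table used here ties these names to genes or genome positions, so neither genes nor sequences are given. Probes were put in the order of their names, by plate, then row (A to H), then well (1 to 12), which may not be genome order.

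Within each dye exchange the deposited values of both arrays were the same, so n = 2 for every probe. The values behave as a log ratio of unstated base and direction, most likely immunoprecipitate over input, since the minority of probes that stand apart lies on the high side. With the opposite direction, above and below would swap throughout. They are given as units above the median of all 21740 probes in their replicate. A probe at least 1 unit above that median in both replicates is called an upper probe.

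These plates were rich in upper probes. Upper probes numbered 1063 of 4800 (22.1%), against 16.2% over the whole array, and these plates held 30.2% of all upper probes. In replicate I, 1500 probes (31.2%) reached 1 unit, against 23.8% over the whole array, and in replicate II 1100 probes (22.9%) did, against 17.1%. Of the probes that reached it in replicate II, only 37 did not reach it in replicate I, whereas 437 reached it in replicate I alone. Over the whole array these counts were 200 and 1659 of 21740 probes. Just inside the rule, 87 probes had a lower replicate between 1 and 1.1 units, and just outside it 93 had one between 0.9 and 1. In limma's moderated test, 1662 probes (34.6%) lay above the median at a Benjamini-Hochberg adjusted p under 0.05, against 27.1% of all probes, and 74 (1.54%) lay below it, against 4.81%. The rule and the limma test use the same 2 values, so the calls lend the upper probes no further support.

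The mean of the upper probes was 2.41 units in replicate I and 1.78 in II, with SDs over probes of 0.59 and 0.57 units. The other probes had medians of -0.04 and -0.03 units. Replicate I was the higher for 1047 of the upper probes (98.5%), and the mean of replicate II was 0.738 times that of replicate I. The whole array was alike: replicate I was the higher for 97.8% of its upper probes, which averaged 2.41 and 1.78 units. The SD between the 2 values of an upper probe, pooled over probes, was 0.498 units, and it was 0.221 units once the mean offset of 0.632 was removed. Over all 4800 probes the replicates correlated at r = 0.94 (Spearman's rho 0.87). Neighbouring probes share signal, so these are descriptions of the probes and not of independent points.

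**Figure D1:**
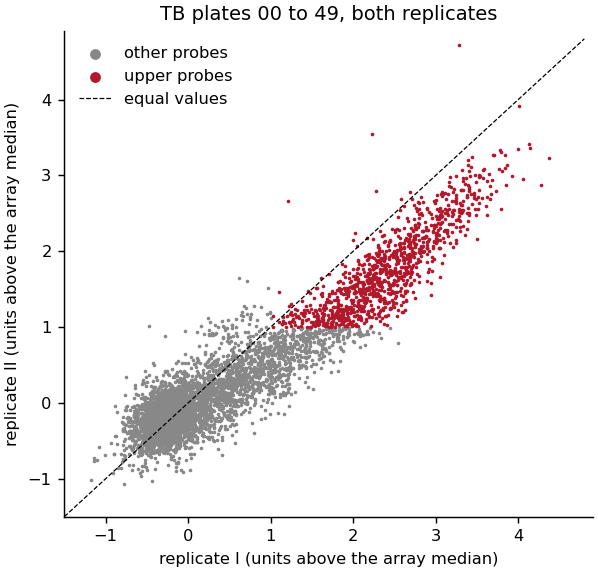
Values of the 4800 probes in replicate I (horizontal axis) and replicate II (vertical axis), in units above the median of the array, with the 1063 upper probes in red and the dashed line at equal values. Most upper probes lie below the line, and a few, such as TB40E11 at 3.28 and 4.72 units, lie far above it.

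The fullest plates were TB21 with 61 upper probes of 96, TB25 with 60, TB32 with 55, TB38 with 52 and TB23 with 40. These 5 plates held 268 upper probes, 25.2% of those found here. On plate TB21 even the median probe was at 2.40 units in replicate I and 1.62 in II. Most plates were far more alike: 30 of the 50 had 15 to 30 upper probes, and the median plate had 18.5. Plates TB08 and TB45 had none, with median probes at -0.18 and -0.20 units on TB08 and at -0.24 and -0.16 on TB45. At the limit of the selection, plate TB49 had 20 upper probes (medians 0.29 and 0.21 units) and plate TB50 had 13 (medians 0.04 and 0.08).

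In blocks of 10 plates the share of upper probes was 14.2% on TB00 to TB09, 22.0% on TB10 to TB19, 27.5% on TB20 to TB29, 28.6% on TB30 to TB39 and 18.4% on TB40 to TB49. The block order was the same in each replicate alone, from 22.0% (block TB00 to TB09) to 40.3% (block TB30 to TB39) in replicate I and from 15.3% to 29.3% in replicate II. Among the blocks of plates TB00 to TB49 the density was thus highest on TB30 to TB39 and lowest on TB00 to TB09. The blocks of 10 plates from TB50 on lay between 11.6% (TB70 to TB79) and 18.5% (TB60 to TB69).

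**Figure D2:**
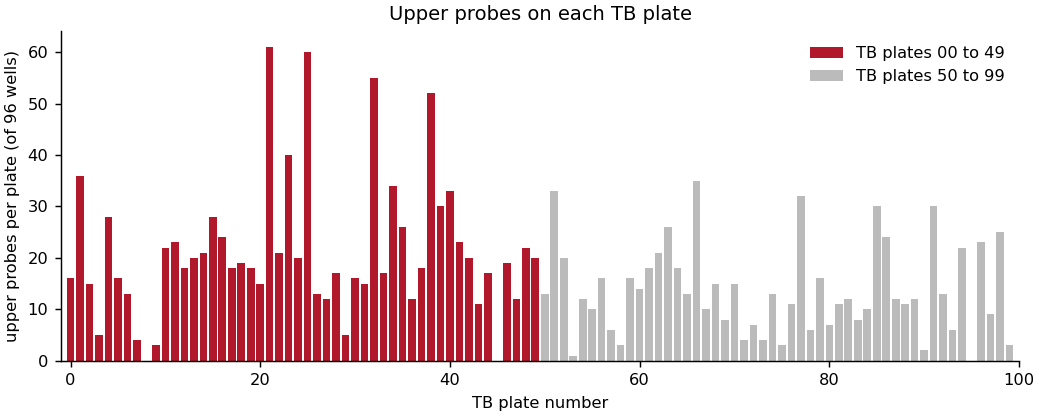
Number of upper probes (vertical axis, of 96 wells) on each of the 100 TB plates (horizontal axis, plate number), red for plates 00 to 49 and grey for plates 50 to 99. Plates TB21, TB25, TB32 and TB38 rise above 50 upper probes, and no plate from 50 on has more than 35.

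Against the second part of the TB series, the first part was denser. On plates TB50 to TB99, 689 of 4799 probes (14.4%) were upper, so the share on TB00 to TB49 was 1.54 times as high. The ratio was 1.42 in replicate I alone and 1.5 in replicate II alone, where the share was 31.2% against 22.0% and 22.9% against 15.3%. No test of this difference was made, since with 2 replicates the smallest two-sided p of an exact sign test is 0.5, and it is a description of these arrays. It also rests on the direction of the score: the probes that limma called below the median, which would be the high ones with the sign turned, made up 1.54% of the first part and 1.52% of the second. Plates above the share of the whole array numbered 35 of 50 in the first part and 17 of 50 in the second. The 4 plates with more than 50% upper probes all lay in the first part.

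The height of the upper probes was close in both parts. They averaged 2.41 and 1.78 units (replicates I and II) on TB00 to TB49 and 2.40 and 1.78 units on TB50 to TB99. Probes at 2 units or more in both replicates made up 31.7% of the upper probes in the first part and 33.2% in the second. The parts differed in how many probes were upper and how they were joined. Runs (adjacent wells in name order that are all upper) numbered 244 against 200, and their mean length was 4.36 against 3.44 probes. Runs of 10 or more were lower in the first part, at 2.59 and 1.97 units against 2.81 and 2.17 (means over 21 and 11 runs). Single upper probes were higher there, at 1.85 and 1.30 units against 1.72 and 1.28, and runs of 5 to 9 were alike, at 2.52 and 1.85 against 2.52 and 1.87. Outside the runs of 10 or more, 15.5% of probes were upper in the first part and 12% in the second, a ratio of 1.30. Without the 5 fullest plates of each part the shares were 18.4% and 12.2%, a ratio of 1.5.

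Most upper probes had an upper neighbour. The well after an upper probe was itself upper for 77.0% of the 1063 on these plates and for 71.0% of the 689 on the later ones. After a probe that was not upper, the next well was upper for 6.53% and 4.87%. The correlation of a probe in one replicate with a probe further on in the other was 0.81 at 1 well, 0.55 at 3 wells, 0.38 at 5 wells and 0.17 at 12 wells. On the later plates it was 0.78, 0.46, 0.27 and 0.11 at the same distances. At 96 wells it was near 0 on both (-0.00 and -0.05).

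The 244 runs had a median of 3 probes. Of them, 63 were single upper probes (5.93% of all upper probes), and 116 runs with 2 to 4 probes held 31.1%, as against 27.4% in 44 runs of 5 to 9 and 35.6% in 21 runs of 10 or more. On the later plates 11 runs had 10 or more probes and held 19.0%. Runs of 15 or more numbered 12 in the first part and 1 in the second, and all 5 TB runs of 20 or more lay in the first part.

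The 21 long runs, those of 10 or more probes, touched 22 plates, and 5 of them continued across a plate boundary. They held 378 probes, and replicate I was the higher for 371 of them. The mean of a long run, over both replicates, lay between 1.83 and 3.09 units. Among these long runs it was not tied to the length: over the 21 runs the correlation of length and mean was -0.08 (Spearman's rho 0.09), a description with no test. Shorter runs were lower. Length and height are read from the same values under the same cut, so the rule itself favours this order. Averaged over runs, single upper probes were at 1.85 and 1.30 units (replicates I and II) and runs of 2 to 4 at 2.21 and 1.56. Runs of 5 to 9 were at 2.52 and 1.85 units, and the long runs at 2.59 and 1.97. The count of long runs depends on the replicate and on the rule: it was 37 in replicate I alone, 21 in replicate II alone, 39 at 0.5 units and 6 at 1.5 units.

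The longest run covered 46 probes of plate TB32, from TB32C09 to TB32G06. It averaged 2.37 units in replicate I and 1.77 in II, and its probes spanned 1.22 to 3.30 units and 1.0 to 2.85 units. Its profile was uneven. Its highest probe was TB32D11 at 3.22 and 2.81 units, and the 6 probes TB32D09 to TB32E02 averaged 2.87 and 2.20. Near its far end the level sank over 6 probes, TB32F09 to TB32G02, which averaged 1.58 and 1.31 units, with TB32F09 at 1.27 and 1.11. It then rose to 2.95 and 2.44 units at TB32G04 and ended within 3 wells, TB32G07 being at 0.18 and 0.40. At a rule of 1.5 units this run broke up and no piece of 10 or more remained.

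After it came 23 wells without any upper probe, with medians of -0.01 and 0.03 units, and then a run of 12 from TB33A06 to TB33B05 (2.54 and 1.83 units). The step into that run was steep: TB33A04 was at 0.16 and 0.24 units, TB33A05 at 2.12 and 0.90.

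The next longest run, 36 probes from TB24G11 to TB25B10, was the flattest of the 5 runs of 20 or more. In consecutive sets of 6 probes its mean stayed between 2.10 and 2.28 units in replicate I and between 1.60 and 1.76 in replicate II. Its SD over probes was 0.26 units, against 0.51 units in the run on plate TB32 and 0.48 units in the run of 28 described below. Around that level it rose and fell with a short, regular spacing. Replicate I had 11 local maxima inside the run, replicate II had 11, and all 11 fell on the same probes. The first spacing was 2 wells, and from the second maximum on the 9 spacings were 3 or 4 wells, with a mean of 3.44.

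These maxima lay on TB24H02, TB24H06, TB24H09, TB25A01, TB25A04, TB25A08, TB25A12, TB25B03, TB25B06 and TB25B09, after a weaker one on TB24G12. They fell in varying plate columns and continued without a break from plate TB24 to plate TB25. The maxima averaged 2.46 ± 0.16 units in replicate I and 2.02 ± 0.14 in II (SD over 11 probes), and the minima between them 1.91 ± 0.10 and 1.44 ± 0.11 (SD over 10 probes). Maxima exceed minima by construction. The correlation of one replicate with the other inside the run was -0.54 at 2 wells, 0.43 at 3, 0.27 at 4, -0.51 at 5 and 0.36 at 7 wells.

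Shared maxima also occurred in the other 7 runs of 18 or more probes, to differing degrees. In the run from TB21G11 all 5 maxima of replicate I recurred among 7 in replicate II, with correlations of 0.18 at 1 well and -0.26 at 3 wells. In the run from TB13H03, 4 were shared of 5 and 6, with correlations of 0.67 and 0.37. In the run from TB21B05, 3 were shared of 4 and 4 (0.43 and -0.49), in the run from TB25C01 4 of 6 and 8 (0.17 and 0.04), and in the run from TB34D06 1 of 5 and 4 (0.50 and -0.16). In the run on plate TB32, 7 maxima were shared of 10 in replicate I and 10 in II, and the correlation fell from 0.50 at 1 well to 0.03 at 2 and -0.02 at 3 wells. In the run on plate TB38, 4 were shared of 8 and 6, and the correlation fell from 0.62 at 1 well to 0.29 at 3. A correlation below 0 at 1 well and above 0 at 3 wells was found in the run from TB24G11 and in none of these 7. The pattern was noticed after the values were seen, no test of it was made, and whether the probed sequences are alike was not examined here.

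The flat run was followed by 2 wells below the rule, TB25B11 at 0.72 and -0.01 units and TB25B12 at 1.58 and 0.97. A run of 21 probes came next, from TB25C01 to TB25D09, at 2.34 and 1.83 units. It started at the level of the flat run and rose to TB25D02, at 3.41 and 2.82 units, and the probe after that, TB25D03, was back at 1.96 and 1.07.

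The run of 28 probes from TB38F08 to TB38H11 was higher, at 2.94 units in replicate I and 2.25 in II. Along its length it dipped, rose to a late peak and fell again. Sets of 6 probes averaged 2.72, 2.61, 3.13 and 3.51 units in replicate I and 2.09, 1.86, 2.40 and 2.86 in replicate II, and the last 4 probes averaged 2.61 and 1.96. The peak was TB38H05 at 4.13 and 3.41 units (SD 0.51, limma adjusted p = 0.000313), and the run ended at TB38H12, at 0.21 and 0.11 units.

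Height was greatest in a shorter run, 16 probes from TB04D05 to TB04E08, with means of 3.42 and 2.76 units. It held 4 of the 10 highest probes of these plates. TB04E05 was at 4.01 and 3.91 units (SD 0.07), TB04E01 at 4.37 and 3.23 (SD 0.81), TB04E07 at 3.99 and 3.35 (SD 0.46) and TB04E06 at 3.79 and 3.31 (SD 0.34). In limma's test their adjusted p-values were 0.000313 to 0.000321. The run climbed from 2.89 and 2.20 units at TB04D05, stayed high up to TB04E07 and fell to 2.45 and 1.43 at TB04E08 and to 0.93 and -0.20 at TB04E09. On its near side 1 well, TB04D04 at 0.80 and 1.27 units, parted it from a further pair of upper probes.

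The run of 15 probes from TB39H10 to TB40A12 was the next highest, at 3.16 and 2.57 units, with its peak at TB40A02 (3.78 and 3.34 units). Plate TB21 and the start of TB22 held 3 long runs. They ran from TB21B05 to TB21C10 (18 probes, 2.91 and 2.32 units), from TB21D01 to TB21E04 (16 probes, 2.66 and 2.15 units) and from TB21G11 to TB22A04 (18 probes, 2.93 and 2.36 units). Just 2 wells lay between the first and the second of them, TB21C11 at 1.95 and 0.95 units and TB21C12 at 1.32 and 0.89, so replicate I passed the rule in both and replicate II in neither. The third followed after 30 wells at medians of -0.12 and -0.02 units, with its peak at TB21H11 (3.84 and 3.27 units).

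**Figure D3:**
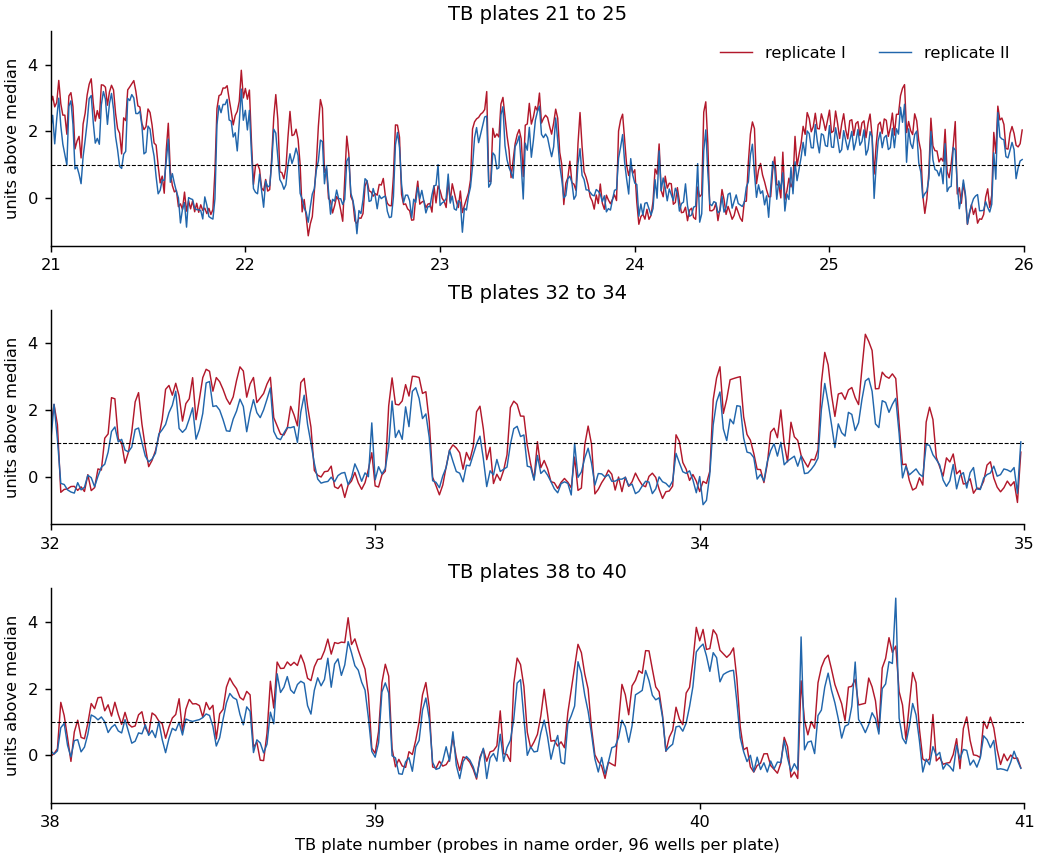
Values of all probes on plates TB21 to TB25 (top), TB32 to TB34 (middle) and TB38 to TB40 (bottom) in name order (horizontal axis, plate number), in units above the array median (vertical axis), replicate I in red and replicate II in blue, with the rule of 1 unit dashed. Blocks of up to 46 probes above the line alternate with stretches near 0, and both replicates trace the same blocks.

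The lowest of the 21 long runs had 14 probes, TB41G11 to TB41H12, at 2.07 and 1.59 units, and no probe of it reached 2 units in both replicates. The run of 12 from TB00B03 to TB00C02 was similar, at 2.16 and 1.54 units. The remaining long runs, of 10 to 20 probes, had means between 2.26 and 2.87 units in replicate I and between 1.56 and 2.17 in replicate II. Over all 21 long runs the mean of replicate II was 0.665 to 0.813 times that of replicate I, with a median of 0.766.

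The ups and downs inside a long run recurred in both replicates. The correlation of the replicates over the probes of a run ranged from 0.69 to 0.97 with a median of 0.88, and it was over 0.8 in 16 of the 21 runs. It was highest in the run from TB21B05 to TB21C10 (0.97, 18 probes) and lowest in the run from TB49H02 to TB49H11 (0.69, 10 probes), which was also level, with an SD over probes of 0.21 units.

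**Figure D4:**
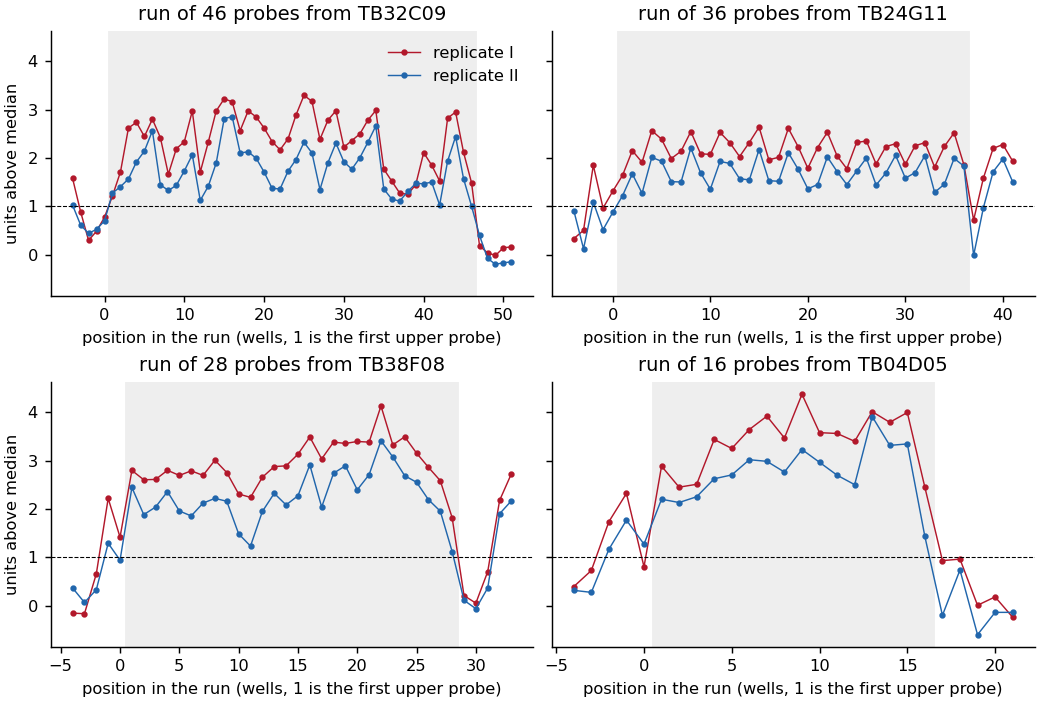
Values by position (horizontal axis, wells from the first upper probe) of 4 long runs with 5 wells on each side, in units above the array median (vertical axis), replicate I in red and replicate II in blue; grey marks the run and the dashed line the rule of 1 unit. The run of 36 from TB24G11 is level, with maxima spaced by 3 or 4 wells from the second maximum on. The run of 46 dips near its far end, and the run of 16 from TB04D05 is the highest.

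On average the long runs were higher inside than at their ends. The ends adjoin wells that fell below the rule, and neighbouring wells share signal, so the rule itself favours lower ends. The first 3 probes averaged 2.51 and 1.84 units (replicates I and II, over the 21 runs), the inner probes 2.69 and 2.06, and the last 3 probes 2.35 and 1.76. In 12 runs the inner probes exceeded both ends in both replicates, and in the other 9 they did not. The highest probe lay among the inner ones in 18 runs, among the first 3 in 3 runs and among the last 3 in none. Inner probes are all but the first 3 and last 3, and so the majority in the longer runs. Their number alone therefore favours them in this count. The first 3 probes were above the last 3 in both replicates in 11 runs and below them in 6.

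Since the rule itself lowers the wells beside a run, edges were also read in the replicate that had not set them. This reading is not free of the rule. The replicates correlate closely, so a cut in one also shapes the edge wells in the other, and how much of the step it makes was not tested. Runs of 10 or more probes in replicate I alone numbered 37, with 74 edges. In replicate II the first well outside averaged 0.26 ± 0.35 units (SD over edges), the outermost well inside 1.06 ± 0.43, the next 1.54 ± 0.64 and the third 1.70 ± 0.67. Further in it stayed at 1.72. With the replicates exchanged, 21 runs with 42 edges gave 1.04 ± 0.55 units in replicate I outside, then 2.06 ± 0.46, 2.55 ± 0.46 and 2.61 ± 0.59 inside. Full height was thus reached about 3 wells into a run in either reading. The step between the outermost well inside and the first outside was 0.80 units in replicate II and 1.02 in replicate I.

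**Figure D5:**
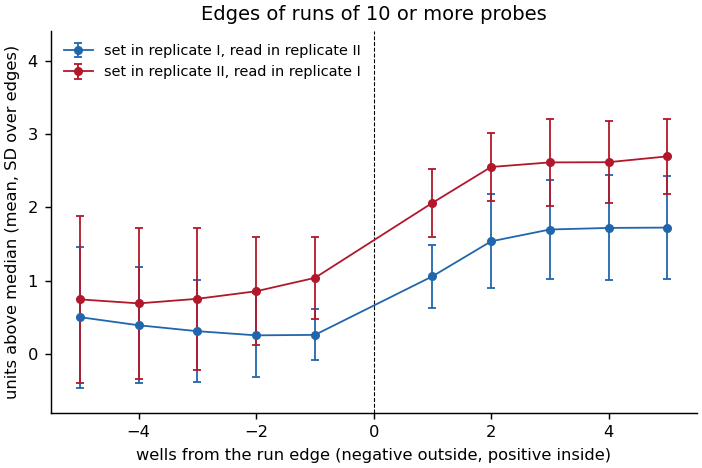
Mean value by distance from the edge of runs of 10 or more probes (horizontal axis, wells, negative outside and positive inside), in units above the array median (vertical axis, bars are the SD over 74 or 42 edges); the runs were set in one replicate and read in the other. Values rise over about 3 wells and level off inside.

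The wells next to the long runs were seldom at the background level. Of the 42 wells flanking the 21 runs, 24 reached 1 unit in one of the replicates and 7 lay below 0.5 units in both. The replicate that reached it was replicate I, the one with the higher values, in all of the 24 but TB04D04. A run ends where either replicate falls below the rule, so these wells can stay high in replicate I. They averaged 1.04 units in replicate I and 0.53 in II. The run from TB34A05 to TB34B02 (10 probes, 2.64 and 1.76 units) had a sharp near edge, with TB34A04 at 0.16 and 0.08 units, and a slow far one, with TB34B03, TB34B04 and TB34B05 at 1.26, 1.09 and 0.69 units in replicate I and at 0.73, 0.70 and 0.57 in replicate II. A run of 19 followed from TB34D06 to TB34E12 at 2.87 and 1.94 units, with its peak at TB34E02 (4.28 and 2.87 units, SD 0.99).

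Some of the spaces between runs were narrow. Of 245 stretches without an upper probe, 43 consisted of 1 well. Among these, TB49H12 at 0.28 and 0.03 units is the last well of the selection, not a space between runs. It is left out of the values that follow for the others. Their median mean was 1.05 units, 35 of them were at 0.5 units or more in both replicates, and 26 reached 1 unit in replicate I. The lowest of the others was TB23D06, at 0.64 and -0.03 units. If such wells are bridged, the long runs number 28 and the longest still has 46 probes.

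At the other extreme, 13 stretches of 50 or more probes without an upper probe held 991 probes, 20.6% of these plates. On the later plates 22 such stretches held 36.1%, and the median stretch had 12 probes there against 8 here. The longest ran over 165 probes from TB07E04 to TB09B12, through the whole of plate TB08, with medians of -0.24 units in replicate I and -0.23 in II. It began after a single upper probe, TB07E03, at 2.11 and 1.55 units. Next to it TB07E04 just missed the rule at 2.20 and 0.99, and TB07E05 was at 1.09 and 0.34. It ended at a pair of upper probes, of which TB09C01 was at 1.86 and 1.05 units. Within it 4 probes reached 1 unit in replicate I and 3 in II, none in both. Its length therefore rests on the demand for both replicates. Anywhere on these plates, the longest stretch was 106 probes in replicate II alone and 111 in replicate I alone. Those stretches need not be parts of this one.

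The stretch that followed in length had 128 probes, from TB44H08 to TB46C03, through the whole of plate TB45, with medians of -0.23 and -0.15 units. Then came 88 probes from TB01H01 to TB02G04 (-0.12 and -0.05 units), 76 from TB29C04 to TB30A07 (-0.09 and 0.01 units) and 75 from TB03B05 to TB03H07 (-0.26 and -0.24 units). Among the 3 longest, 2 lie on the first 10 plates, the block with the lowest share of upper probes on TB00 to TB49. In the first 5 stretches the replicates correlated at 0.71 to 0.73 over their probes.

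Values clearly below the median were few. The lowest probe, TB19C12, was at -1.18 and -1.01 units (SD 0.12, limma adjusted p = 0.00403), between neighbours at -0.69 and -0.66 units in replicate I. No other probe of these plates fell to -1 unit or lower in replicates I and II alike. TB42E05 followed at -1.14 and -0.76 units and TB22C08 at -1.14 and -0.73.

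A few upper probes departed from the common ratio of the replicates. Replicate II was the higher for 16 of the 1063, and by 0.5 units or more for 4. TB40E11, the highest probe of these plates by mean, was at 3.28 and 4.72 units (SD 1.02, limma adjusted p = 0.000358). The next well before it was at 3.09 and 2.75 units. TB40C07, the highest single upper probe, was at 2.23 and 3.55 units between neighbours at -0.70 and 1.04 in replicate I and at -0.45 and 0.16 in replicate II. TB12A11 was at 1.21 and 2.66 units and TB40D11 at 2.28 and 2.80, so 3 of these 4 probes lay on plate TB40. The last 3 were named after their values were seen.

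The widest gap between replicates was that of TB36A01, at 2.54 and 0.78 units, which missed the rule between upper neighbours. TB16D11 followed at 2.94 and 1.42 units. TB16F01 (2.33 and 0.86 units) and TB12C05 (2.45 and 0.99 units) passed the rule in replicate I and not in replicate II. Only TB00H02 among these 5 was higher in replicate II, at -0.48 and 1.02 units (SD 1.06, limma adjusted p = 0.562), whose neighbours were below 0 in both replicates. TB18H12, among the 10 highest at 4.14 and 3.36 units (SD 0.56), lay in a run of 8 that continued onto plate TB19.

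Upper probes were not spread evenly over the plate rows. Row D held 30.2% and row H 28.7%, and row G had the lowest share at 17.0%. Outside the long runs row D had 21.1% and row C the lowest share, 12.7%. On plates TB50 to TB99 row A was the highest at 19.5% and row F the lowest at 10.0%. Over the 12 plate columns the shares ran from 19.8% to 25%. A run of 12 wells fills as much as a row, so a few runs can move a row, and whether position on the plate had a part in the values was not tested.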

How the data were processed

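The deposited table gives a score per probe for each array. How it was normalized, and its log base and direction, is not given in the sources used here; per the labels, amplified DNA was labelled directly with Cy3 and Cy5. Between the 2 arrays of each dye exchange the deposited score never differed (largest difference 0), so they were averaged to 1 replicate, which leaves no view of dye effects. Column medians of -0.94 and -1.20 were subtracted. Of 21800 features 21740 have a value, and all 4800 on plates TB00 to TB49 do. The precision rests on 2 replicates, as scanner intensities were not analysed here. Limma (lmFit and eBayes, intercept only, two-sided) was fitted to all 21740 probes with 1 residual degree of freedom each and Benjamini-Hochberg adjustment. It was tested on simulated data. The run and stretch counts were checked on a short hand-written series of calls with known answers. Runs and stretches follow name order, with plate TB00 before TB01. Named probes were the 10 highest and 3 lowest by mean, the 5 widest replicate gaps, and the ends, peaks and lowest inner probes of long runs and ends of the 5 longest stretches; other wells are named as neighbours of these. The members, the rule of 1 unit and the lists were chosen with earlier results of these data known. Alternatives were other centrings, equal spread, quantile normalization, rules of 0.5 and 1.5 units, each replicate alone, bridged runs, adjusted p under 0.01 and a trended, robust prior; leaving out plate TB00 and turning the sign were added after the data were seen. Software was R 4.3.3, limma 3.58.1, Python 3.11.15, numpy 2.4.6, pandas 2.3.3 and matplotlib 3.10.9.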

Additional observations from a re-analysis of the deposited data

How the results depend on the processing

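The 1063 upper probes became 242 without centring and 659 at 1.5 units. With the sign turned, 1 probe passed. The ratio of shares between the first and second part of the TB plates (1.54) was 1.45 with mode centring, 1.38 at 0.5 units and 1.42 to 1.5 with a replicate left out, above 1 in each of these and in the other 6 settings run. The 21 long runs became 1 without centring, 39 at 0.5 units, 6 at 1.5 units and 21 to 37 with a replicate left out. The longest run (46 probes) had 13 probes without centring and 16 at 1.5 units. The longest stretch lacking upper probes (165) had 334 probes without centring, 106 with mode centring, 103 at 0.5 units and 106 to 111 with a replicate left out. The share of upper probes with an upper probe next (77.0%) was 59.5% without centring, 68.4% at 1.5 units and 75.7 to 80.3% with a replicate left out. The 1662 limma calls above the median were 786 without centring. The edge step was 0.80 units and 1.02 with the replicates exchanged. TB00H02 was at -0.48 units without replicate II, against a mean of 0.27. Centring and rules of size set the cutoff itself, so those moves follow from their construction; the cause of the others was not tested. The other 52 comparisons of counts, ratios and shares under other settings stayed within 1.5 times the main count, or within the spread between replicates. No limma test is possible on 1 replicate, which leaves no spread to estimate. Dim probes cannot be set apart, as signal over background is not used here.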
